A study of Homo sapiens with 18 samples.

Results

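The genes described here are 40 glycolysis and hypoxia response genes, chosen by name and not by their values, though with earlier results of these data known. A row was present for 40 of 40 among the 30954 gene identifiers counted in H2052 cells. Of these, 25 encode glucose and lactate transporters, enzymes of glycolysis and regulators of pyruvate use, and 15 encode hypoxia-inducible factor (HIF) subunits and genes that HIF is known to induce. H2052 is a human pleural mesothelioma cell line that carries mutations in the Hippo pathway genes NF2 and LATS2. Parental H2052 cells and NF1 mutant H2052 cells, the latter Cas9-expressing cells transduced with an sgRNA vector and selected with puromycin, each received VT107 (1 µM, over 24 h) or DMSO as control, with 3 libraries in each of the 4 groups. VT107 is a small-molecule inhibitor of TEAD auto-palmitoylation, which YAP and TAZ require for their transcriptional output, and the comparisons addressed how TEAD inhibition and loss of the RAS repressor NF1 shape the transcriptome. Whether the NF1 mutant cells were a pool or a clone is not given in the sources used here, and the labels name no control sgRNA for the parental cells. A further 6 libraries, 3 per treatment, came from NCI-H226, a pleural mesothelioma line with mutant NF2.

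Glycolysis converts glucose to pyruvate through enzymes that often exist as paralogs with distinct tissue distributions, and lactate dehydrogenase then reduces pyruvate to lactate, which leaves the cell through monocarboxylate transporters. Under low oxygen the alpha subunits of HIF escape hydroxylation by EGLN enzymes and VHL-dependent degradation, pair with ARNT, and bind a short core motif near genes for glycolysis, angiogenesis, mitophagy and collagen processing. Tumour cells frequently express this programme also in the presence of oxygen.

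The core motif of HIF binding was searched for in promoters of the members. Promoters of 3 members called between the genotypes under DMSO, picked with those calls known, are shown first. They are PGK1, a glycolytic kinase gene, P4HA1, a collagen prolyl hydroxylase gene, and ADM, which encodes the vasodilator peptide adrenomedullin. The sequences are from RefSeq (GRCh38.p14), 300 bases each, written 5′ to 3′ on the strand of the gene, and capitals mark ACGTG or GCGTG on either strand. The windows are chrX:78103998-78104297 on the plus strand for PGK1, chr10:73096817-73097116 on the minus strand for P4HA1 and chr11:10304823-10305122 on the plus strand for ADM.
PGK1: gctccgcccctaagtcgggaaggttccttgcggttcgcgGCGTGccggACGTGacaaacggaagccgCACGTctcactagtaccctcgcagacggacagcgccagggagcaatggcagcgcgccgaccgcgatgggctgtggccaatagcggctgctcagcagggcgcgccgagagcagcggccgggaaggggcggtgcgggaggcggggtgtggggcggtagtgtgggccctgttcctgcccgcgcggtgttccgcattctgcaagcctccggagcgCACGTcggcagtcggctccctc
P4HA1: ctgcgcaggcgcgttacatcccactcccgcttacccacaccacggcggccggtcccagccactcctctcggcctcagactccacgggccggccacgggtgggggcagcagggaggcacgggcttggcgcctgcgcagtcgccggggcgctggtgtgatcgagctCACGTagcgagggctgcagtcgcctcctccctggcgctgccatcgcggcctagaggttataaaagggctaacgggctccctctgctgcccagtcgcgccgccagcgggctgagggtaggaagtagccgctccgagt
ADM: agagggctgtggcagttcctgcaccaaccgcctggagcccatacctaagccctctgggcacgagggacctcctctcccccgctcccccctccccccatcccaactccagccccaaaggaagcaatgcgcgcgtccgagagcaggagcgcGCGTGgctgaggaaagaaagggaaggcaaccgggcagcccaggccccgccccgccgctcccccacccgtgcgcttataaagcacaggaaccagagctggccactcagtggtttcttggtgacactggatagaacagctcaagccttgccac
The PGK1 promoter held ACGTG at 3 positions and GCGTG at 1, whereas P4HA1 held 1 ACGTG and ADM 1 GCGTG. Among the members, 34 matched an entry and SLC2A3, PFKFB2, SLC16A1, VEGFA, BNIP3L and NDRG1 did not. ACGTG was present in 39.3% of the 61 member promoters, since several genes have more than 1 start site, and in 21.4% of all 35116 promoters of that length. The other core, GCGTG, was present in 41% of the member promoters against 36.5% of all promoters, and GGAATG, the motif that TEAD factors bind, in 11.5% against 14%. Both strands were searched. ACGTG overlaps itself on the opposite strand where the sequence reads CACGTG. These are letter matches in 1 window per start site and say nothing of binding in these cells.

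The NF1 gene was counted first, as a check of the labels. It had 361 to 867 counts in the 6 parental libraries and 29 to 89 in the 6 NF1 mutant libraries. Scaled to library size, NF1 was at 26.0 to 67.6 CPM in parental and 8.26 to 18.1 CPM in NF1 mutant libraries. The parental libraries with number 3 were the lowest of their groups, at 33.7 CPM under DMSO and 26.0 CPM under VT107. The log2 fold change between genotypes was -1.78 ± 0.27 under DMSO (SE, adjusted p = 0.00229, edgeR). Under VT107 it was -1.75 ± 0.46 and not called (adjusted p = 0.141). Total gene counts were 10950284 to 13418485 in the parental libraries and 3285363 to 5489092 in the NF1 mutant libraries, whose column names also carry a different prefix, so that genotype cannot be told apart from depth or from whatever that prefix marks. Mesothelial markers were present in part: WT1 at 18.5 to 48.7 CPM (counts scaled to library size, on the usual per-million scale) and MSLN at 13.0 to 71.2 CPM. KRT5 and ITLN1, 2 of 10 listed markers, were at 0 in every library. CALB2, at 0 to 8.22 CPM, and UPK3B, at 0.287 to 1.46 CPM, were low. The sum over the list was 91.9 to 145 CPM. Of 8 leukocyte markers, 4 to 6 per group were at 0 throughout and CD68 made up most of the summed level, which reached 12.4 to 26.2 CPM in the NF1 mutant VT107 libraries. Summed endothelial and epithelial markers stayed at or below 0.865 and 3.82 CPM, and fibroblast markers reached 327 CPM. The fibroblast list split: COL1A1, at 82.6 to 246 CPM, made up most of its sum. PDGFRA and COL1A2 were at 5.41 to 83.2 and 2.28 to 64.7 CPM. DCN, LUM and PDGFRB stayed at or below 0.715, 1.42 and 2.24 CPM. Under DMSO the fibroblast sum was 114, 141 and 205 CPM in parental and 209, 204 and 206 CPM in NF1 mutant cells, and the leukocyte sum 3.11, 2.51 and 9.48 CPM and 6.44, 8.99 and 6.34 CPM. The part of these differences in the genotype comparison was not tested. In bulk samples, fewer cells of a type and less RNA per cell cannot be told apart. NF1 mutant VT107 replicate 1 and the parental libraries with number 3 stood apart. The former had 54962 GAPDH counts beside 18138 and 13251 in its group, 2 KDM3A counts beside 150 and 80, and the fewest genes detected among the H2052 libraries, 14025. The latter, 1 per treatment, had summed leukocyte markers of 9.48 and 17.2 CPM against 2.51 to 5.16 CPM in the other parental libraries, and SLC16A3 at 591 and 902 CPM against 177 to 246 CPM. For some members whose call or value changed when these libraries were left out, both values are given. Calls of further members changed too, and for those only the numbers of members called are given.

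**Figure D1:**
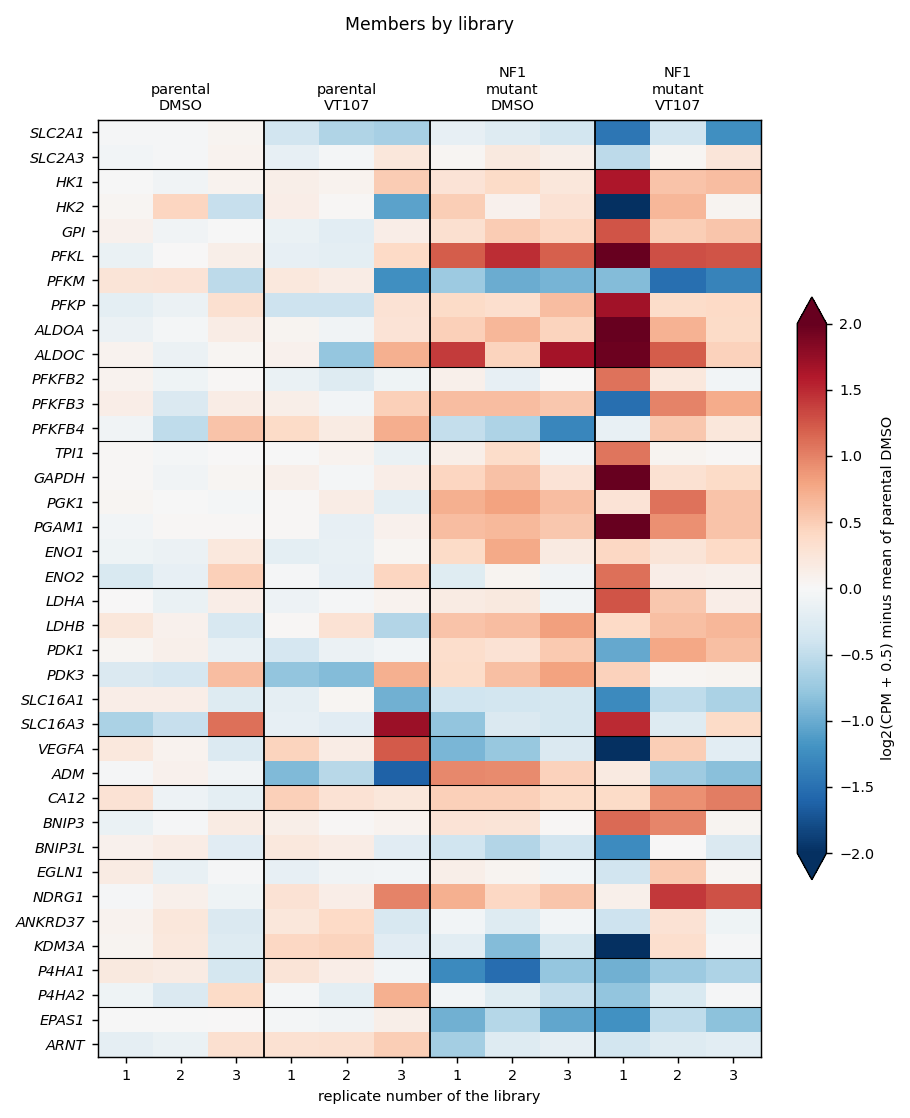
Heat map of 38 members (rows, in order of role) in 12 H2052 libraries (columns, grouped by genotype and treatment, with the replicate number below); colour is log2(CPM + 0.5) minus the mean of the 3 parental DMSO libraries. PFKL is raised and P4HA1, PFKM and EPAS1 are lowered across the NF1 mutant libraries, and NF1 mutant VT107 replicate 1 has a pattern unlike the other 2 libraries of its group; CA9 and EGLN3, with 3 counts or fewer per library, are left out.

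In NF1 mutant cells under DMSO, 8 of 24 glycolysis members were higher than in parental cells and 1 was lower, while of 13 hypoxia members 2 were higher and 3 lower. Of 37 members tested, 10 rose, PFKL, PGK1, LDHB, PGAM1, PFKFB3, ALDOA, GAPDH, GPI, ADM and NDRG1, and 4 fell, P4HA1, PFKM, EPAS1 and BNIP3L, at an adjusted p under 0.05 in edgeR's quasi-likelihood test. Over all 12475 genes tested, 12.5% were higher and 14.9% lower by the same rule, which is the background for these counts. The 24 glycolysis members had a median log2 fold change of 0.36, with 17 positive, and the 13 hypoxia members a median of -0.26, with 5 positive. The median over all genes was -0.01. TMM-scaled CPM did not overlap between the groups for 14 members that were higher and 7 that were lower, beside 44.4% of all genes tested.

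Glucose enters through the transporters SLC2A1 and SLC2A3, neither of which was called. SLC2A1 was at 45.8, 45.7 and 48.5 CPM in parental and 41.5, 38.8 and 36.1 CPM in NF1 mutant cells, and SLC2A3 at 48.2, 49.5 and 52.9 CPM and at 51.7, 57.2 and 54.4 CPM. The SLC2A1 levels of the 2 genotypes did not overlap, those of SLC2A3 did. Hexokinase HK1, which commits glucose to the cell, was at 139 to 152 CPM in parental and 169 to 189 CPM in NF1 mutant libraries, without a call (log2 fold change 0.31, adjusted p = 0.0756). HK2, its inducible paralog, had overlapping levels of 19.9 to 37.5 CPM and 29.4 to 39.0 CPM.

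Phosphofructokinase, the main control point of glycolysis, included the largest change among the 37 members tested. ALDOC, the brain-type aldolase, was below the limit for testing, with 7, 6 and 6 counts in parental and 12, 4 and 11 counts in NF1 mutant libraries, or 0.509 ± 0.0683 and 1.90 ± 0.927 CPM (SD, n = 3). PFKL (ENSG00000141959, hg19 chr21:45719934-45747259), the liver-type subunit, was at 60.0, 66.4 and 71.7 CPM in parental and 153, 184 and 151 CPM in NF1 mutant cells. Every NF1 mutant library exceeded every parental library by more than 2 times. The log2 fold change was 1.32 ± 0.14 (SE, 3 libraries per group), with an adjusted p of 0.000416. PFKM (ENSG00000152556, hg19 chr12:48498922-48540187), the muscle-type subunit, moved the opposite way, from 26.6, 27.0 and 15.3 CPM to 13.2, 11 and 11.5 CPM. Its fold change was -0.93 ± 0.24 on the log2 scale (adjusted p = 0.022), the lowest parental library being number 3. SENP1 overlaps PFKM on the opposite strand and whether counting used strand is not stated. PFKP, the platelet-type subunit, was not called at 98.4, 104 and 142 CPM against 147, 143 and 175 CPM.

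As shares of the counts over all 3 phosphofructokinase genes, which are not corrected for gene length, PFKL took 32.4%, 33.6% and 31.4% in parental DMSO libraries and 48.8%, 54.5% and 44.8% in NF1 mutant DMSO libraries. PFKM fell from 14.4%, 13.6% and 6.68% to 4.22%, 3.25% and 3.39%. Neither set of shares overlapped between genotypes, and under VT107 the same held: PFKL took 34.4% to 37.2% in parental and 50.1% to 56.1% in NF1 mutant libraries, including replicate 1. These shares are given without a test, because 3 libraries against 3 allow no exact two-sided p under 0.1.

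**Figure D2:**
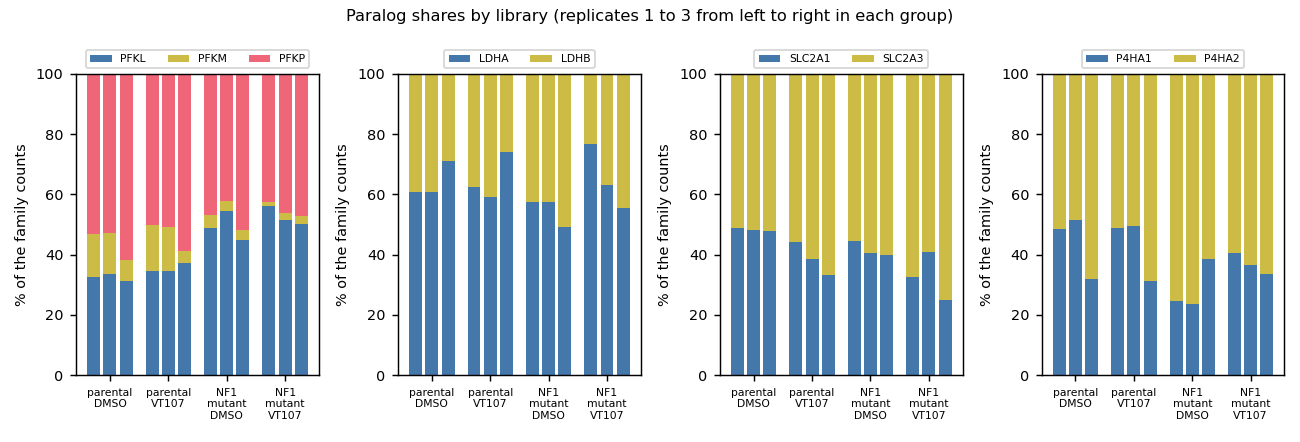
Stacked bars of the share of counts (y axis, % of the counts over the paralogs of a family) in each of the 12 H2052 libraries, for phosphofructokinase, lactate dehydrogenase, the glucose transporters and collagen prolyl 4-hydroxylase. The PFKL share is 31.4% to 33.6% in parental DMSO and 44.8% to 56.1% in the NF1 mutant libraries, while the LDHA and P4HA1 shares vary within groups.

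PFKFB3 makes fructose 2,6-bisphosphate, the allosteric activator of phosphofructokinase. PFKFB3 (ENSG00000170525, hg19 chr10:6186881-6277495) was at 27.0, 20 and 27.3 CPM in parental and 38.1, 37.7 and 35.9 CPM in NF1 mutant cells. The groups were separate and the log2 fold change was 0.60 ± 0.17 (adjusted p = 0.0308, and 0.0505 with the replicate block). Its paralogs PFKFB2, at 10.5 to 12.7 CPM, and PFKFB4, at 0.488 to 3.13 CPM, were not called.

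Downstream of phosphofructokinase, PGK1 (ENSG00000102144, hg19 chrX:77320685-77384793), which makes the first ATP of the pathway, was at 225, 218 and 213 CPM in parental and 357, 384 and 337 CPM in NF1 mutant cells. The log2 fold change was 0.73 ± 0.11 (adjusted p = 0.00194). PGAM1 (ENSG00000171314, hg19 chr10:99185917-99193198), phosphoglycerate mutase, was at 212, 224 and 224 CPM and at 336, 347 and 320.0 CPM, a log2 difference of 0.62 ± 0.11 (adjusted p = 0.00388). The highest parental library lay well below the lowest NF1 mutant library for both genes. EXOSC1 overlaps PGAM1 on the opposite strand. Aldolase ALDOA, GAPDH and the isomerase GPI also rose, with log2 fold changes from 0.43 to 0.55, and GPI was not called with the replicate block (adjusted p = 0.0542). TPI1, ENO1 and ENO2 were not called, with log2 fold changes from -0.11 to 0.47.

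At the end of the pathway, 1 of the dehydrogenase paralogs was called. LDHB (ENSG00000111716, hg19 chr12:21788276-21910791), the subunit typical of lactate-consuming tissue, was at 484, 438 and 332 CPM in parental and 616, 635 and 728 CPM in NF1 mutant cells (log2 fold change 0.68 ± 0.15, adjusted p = 0.0105). LDHA, the subunit HIF induces, was at 749, 679 and 817 CPM and at 833, 855 and 707 CPM, overlapping between genotypes (log2 fold change 0.11, adjusted p = 0.56). The pyruvate dehydrogenase kinases PDK1 and PDK3 and the lactate carriers SLC16A1 and SLC16A3 were not called, with log2 fold changes from -0.68 to 0.57. The SLC16A3 value rested on parental replicate 3, at 591 CPM beside 177 and 199 CPM, and was 0.10 with the number 3 library left out.

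**Figure D3:**
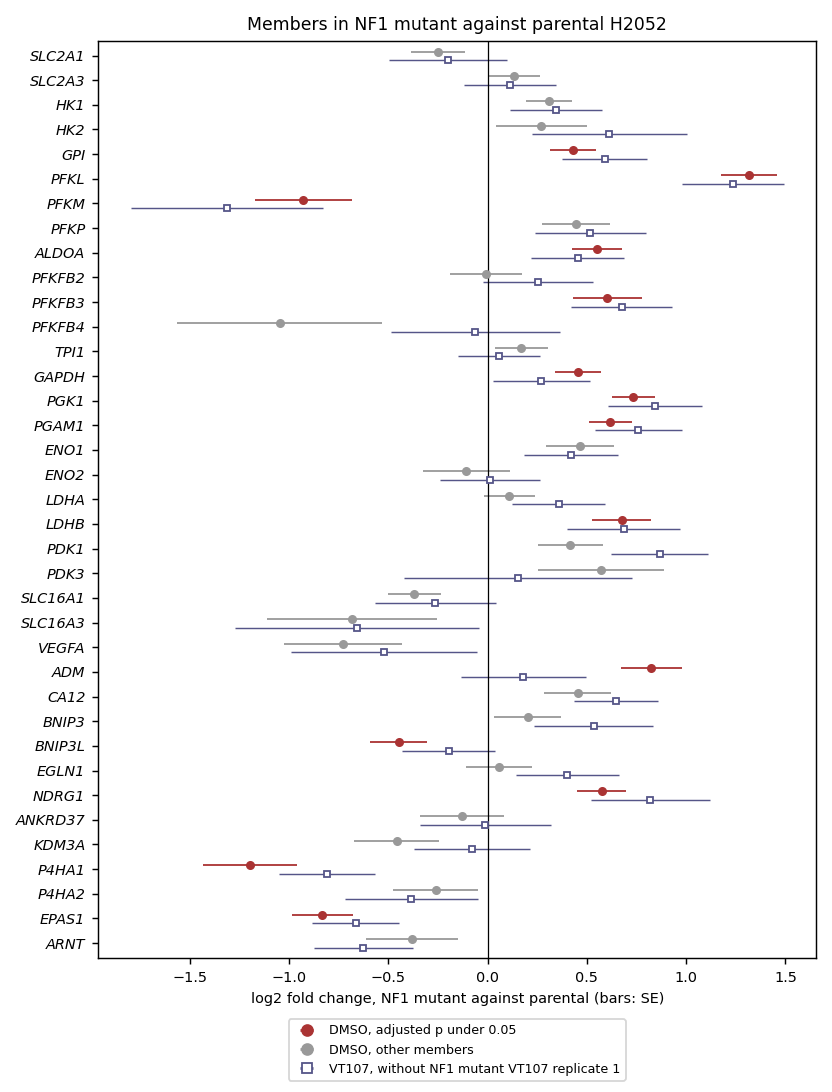
Log2 fold change of NF1 mutant against parental H2052 (x axis) for 37 members (y axis, by role), with SE bars; filled circles are the DMSO comparison of 3 against 3 libraries, red where the adjusted p is under 0.05, and open squares the VT107 comparison without NF1 mutant VT107 replicate 1. Red points lie to the right for 10 members and to the left for 4, with PFKL at 1.32 and P4HA1 at -1.20 the outermost of the red points.

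The HIF subunits and their targets did not move as 1 group. EPAS1 (ENSG00000116016, hg19 chr2:46520806-46613836), which encodes HIF2 alpha, was at 103 CPM in all 3 parental libraries and at 52.6, 68.9 and 49.8 CPM in NF1 mutant cells. This separation gave a log2 fold change of -0.83 ± 0.15 (adjusted p = 0.00515). ARNT, the shared partner subunit, was at 15.6 to 22.3 CPM and 10.9 to 15.6 CPM and was not called. HIF1A, not a member but the other main alpha subunit and singled out after its values were seen, fell as well, from 57.4, 48.0 and 65.2 CPM to 35.1, 35.3 and 31.0 CPM (log2 fold change -0.73 ± 0.16, adjusted p = 0.0115).

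Among the targets, P4HA1 (ENSG00000122884, hg19 chr10:74766975-74856732) was at 34.4, 33.5 and 23.4 CPM in parental and 12.2, 10.1 and 17.3 CPM in NF1 mutant cells. The log2 fold change of -1.20 ± 0.24 (adjusted p = 0.00718) was the largest decrease among the members called. Its paralog P4HA2 was at 31.5 to 50.3 CPM and 27.6 to 37.2 CPM, without a call. ADM (ENSG00000148926, hg19 chr11:10326227-10328944) went the other way, from 120.4, 130.2 and 116 CPM to 238, 236 and 167 CPM (log2 fold change 0.83 ± 0.16, adjusted p = 0.00561). NDRG1 (ENSG00000104419), a stress and hypoxia responsive gene, was at 118, 128 and 112 CPM and at 195, 158 and 174 CPM (log2 fold change 0.57 ± 0.12, adjusted p = 0.00921). For both genes all NF1 mutant libraries were above all parental libraries. The mitophagy receptor BNIP3L fell by 0.45 on the log2 scale, near the threshold (adjusted p = 0.0448, and 0.0868 with the replicate block), and BNIP3 was not called. PNMA2 overlaps BNIP3L, and PDLIM4 overlaps P4HA2, on the opposite strand.

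Expression of the remaining hypoxia members was low or did not pass the test. CA9, a carbonic anhydrase gene often used as a hypoxia marker, had counts in 2 of 12 H2052 libraries, with at most 2, and EGLN3 had at most 3. A count of 0 in the smallest library allows up to 0.913 CPM, from counting error only, if 3 counts are taken as the limit. The carbonic anhydrase CA12, the angiogenic factor VEGFA, the histone demethylase KDM3A, the HIF hydroxylase EGLN1 and ANKRD37 were tested and not called, with log2 fold changes from -0.73 to 0.45.

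The 14 members called kept their signs in all 15 alternatives. These refit the same counts from which the 14 were called, so kept signs are not separate support. The number of members called depended on single libraries. It was 22, of which 15 rose, when parental DMSO replicate 3 was left out, beside 50.9% of all genes. It was 8, 8 and 9 without NF1 mutant DMSO replicates 1, 2 and 3, beside 14.2%, 14.8% and 16.5% of all genes, and 10 and 9 without parental DMSO replicates 1 and 2, beside 18% and 18.1%. Fitting all 4 H2052 groups together, which adds the spread of the VT107 libraries, left 2, EPAS1 and P4HA1, beside 7.36% of all genes. These were the members called under each of the 15 alternatives. PFKL, PGK1, PGAM1 and ADM were called under 14, ALDOA, LDHB and NDRG1 under 13, GAPDH under 10, PFKM under 9, GPI and PFKFB3 under 8 and BNIP3L under 6.

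Beyond the members, 60 further genes of glucose, glycogen and pentose phosphate metabolism and of the HIF response were tested, of which 11 rose and 11 fell, beside the 12.5% higher and 14.9% lower over all genes. The 5 with the largest changes were WSB1 (log2 fold change -1.83), an E3 ligase component, VHL (-1.71), which marks HIF alpha for degradation, PLOD2 (-1.53) and LOXL2 (-1.03), collagen lysine-modifying enzymes, and RAB20 (1.08). VHL was at 18.4, 21.3 and 24.4 CPM in parental and 6.62, 6.80 and 5.85 CPM in NF1 mutant cells. Without the parental number 3 library, 18 of these genes were higher and 17 lower, beside 50.9% of all genes called.

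Under VT107, the same genotype contrast was examined in libraries that the DMSO contrast did not use. None of 36 members was called in the fit of 3 against 3 libraries, in which 0% of 11654 genes were called. Without NF1 mutant VT107 replicate 1, 1.46% of 12573 genes were called and again no member. Weighting libraries by quality with limma, as the study's methods allow, called 17 members, 13 of them higher, beside 31.1% of all genes. Among the members, DESeq2 with all libraries called PFKL alone. It also called genes outside the members, such as NF1 (adjusted p = 0.0154, DESeq2) and CTGF (adjusted p = 0.0195, DESeq2). Its share of all genes is not given. The 14 members called in DMSO had the same direction under VT107 in 14 of 14 cases, beside 96.3% of the 3257 genes called in DMSO and tested in both, so this share is near the background.

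PFKL was at 58.7, 57.5 and 87.3 CPM in parental VT107 libraries and 479, 162 and 159 CPM in NF1 mutant VT107 libraries. Its log2 fold change of 1.95 ± 0.50 became 1.24 ± 0.26 without replicate 1 (adjusted p = 0.0654). EPAS1 was at 100.5, 97.6 and 111 CPM against 44.2, 72.2 and 58.3 CPM, and P4HA1 at 35.8, 32.8 and 28.8 CPM against 15.1, 17.8 and 19.3 CPM. The groups did not overlap for these genes. Across the members, 12 were higher and 3 lower without overlap, beside 25.5% of all genes. Leaving out replicate 1 gave 17 and 4, beside 40.7%.

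VT107 against DMSO gave few calls among the members. In parental cells no member was called in the unpaired fit, in which 0% of 12891 genes were called, with 2 of 37 members and 474 genes at an unadjusted p under 0.05, while DESeq2 called 32 genes and no member. Parental libraries with the same number deviated together, but only number 3 was told apart by this. Numbers 1 and 2 correlated across treatments with each other (r = 0.642 and 0.552) about as well as with themselves (0.654 and 0.532). With the replicate block 1.67% of genes and 1 member, ADM, were called. ADM was at 120.4, 130.2 and 116 CPM under DMSO and 66.1, 82.9 and 39.5 CPM under VT107. Each VT107 library was below each DMSO library, and the blocked log2 fold change was -1.0 ± 0.16 (adjusted p = 0.0237 in edgeR), against -0.95 ± 0.26 without the block (adjusted p = 0.999). Leaving out number 3 gave -0.71 ± 0.14 and no call (adjusted p = 0.106), in a fit that called 0.329% of all genes.

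SLC2A1 came next. The transporter was at 45.8, 45.7 and 48.5 CPM under DMSO and 35.5, 30.6 and 29.1 CPM under VT107 in parental cells, again without overlap, and its blocked log2 fold change of -0.54 ± 0.12 narrowly missed the threshold (adjusted p = 0.0531). It was -0.43 ± 0.11 without number 3 (adjusted p = 0.199). Within the pair of glucose transporter genes its share of counts went from 48.7%, 48.0% and 47.8% to 44.1%, 38.6% and 33.1%. In all, 2 members, HK1 and NDRG1, were higher and 3, SLC2A1, PFKFB2 and ADM, lower without overlap, beside 10.5% of all genes. The NDRG1 value rested on number 3: its log2 fold change was 0.48 ± 0.17 with the block (adjusted p = 0.196) and 0.20 ± 0.11 without number 3 (adjusted p = 0.463). The median log2 fold change in the unpaired fit was -0.01 over 24 glycolysis members and 0.14 over 13 hypoxia members, against 0.01 over all genes.

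In NF1 mutant cells none of 37 members was called for VT107 in the fit of 3 against 3 libraries, in which 0% of 11605 genes were called. DESeq2 called 20 genes and no member. Without replicate 1 of the VT107 group, 1.59% of genes were called, among them ADM and NDRG1. These values were singled out after they were seen. ADM was at 238, 236 and 167 CPM under DMSO and 138, 74.0 and 68.2 CPM under VT107, and all VT107 libraries, replicate 1 included, were below all DMSO libraries. Its log2 fold change was -1.20 ± 0.34 with replicate 1 (adjusted p = 0.774) and -1.58 ± 0.16 without it (adjusted p = 0.000102, edgeR).

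NDRG1 was at 195, 158 and 174 CPM under DMSO and 127, 317 and 288 CPM under VT107, where replicate 1 lay below and the other libraries above every DMSO library. The log2 fold change of 0.47 ± 0.36 became 0.79 ± 0.12 without replicate 1 (adjusted p = 0.00424, edgeR). SLC2A1 was at 41.5, 38.8 and 36.1 CPM under DMSO and 16.8, 35.5 and 19.6 CPM under VT107, lower in each library but not called (log2 fold change -0.69 ± 0.33). With 3 libraries per group, 4 members were higher and 3 lower without overlap, beside 15.9% of all genes. Without replicate 1 these counts were 12 and 5, beside 31.3%.

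**Figure D4:**
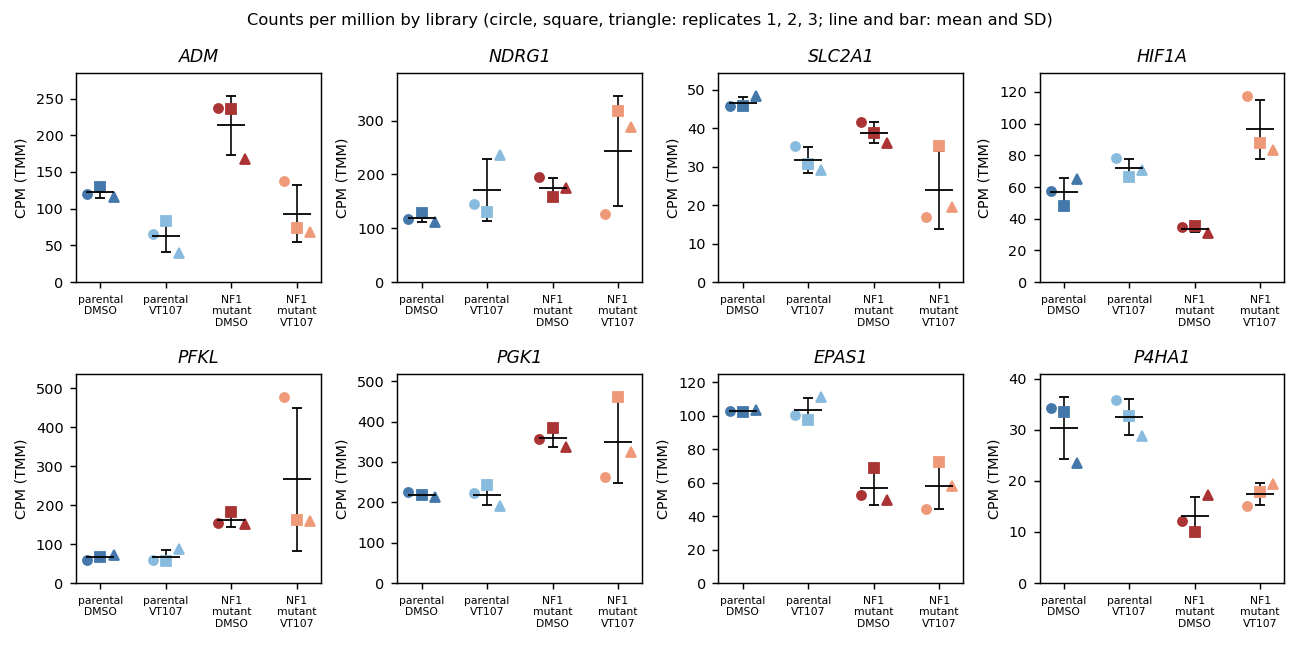
TMM-scaled CPM (y axis, from 0) of 7 members and HIF1A in the 4 H2052 groups (x axis, 3 libraries each); circles, squares and triangles are replicates 1, 2 and 3, and lines and bars the mean and SD. ADM and SLC2A1 are lower and HIF1A higher under VT107 than under DMSO in both genotypes, PFKL and PGK1 are higher and EPAS1 and P4HA1 lower in NF1 mutant than in parental DMSO libraries, and PFKL in NF1 mutant VT107 replicate 1 stands at 479 CPM.

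HIF1A, whose product drives many of these targets, was again singled out after its values were seen. Under VT107 it went from 57.4, 48.0 and 65.2 CPM to 78.2, 66.6 and 71.0 CPM in parental cells and from 35.1, 35.3 and 31.0 CPM to 118, 88 and 83.5 CPM in NF1 mutant cells. The treated libraries were above the control libraries in both genotypes. In NF1 mutant cells the log2 fold change was 1.51 ± 0.24 in edgeR (adjusted p = 0.402), 1.35 ± 0.14 without replicate 1 (adjusted p = 0.000102), and 1.53 in DESeq2 with all libraries (adjusted p = 0.000181). In parental cells it was 0.36 ± 0.11 with the block (adjusted p = 0.139). The difference of these responses was 1.17 ± 0.30 on the log2 scale and was not called (unadjusted p = 0.00178, adjusted p = 1).

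Other genes of the pathway that were called in these fits numbered 2 of 63 in parental cells with the block, HMOX1 (log2 fold change 0.98), heme oxygenase 1, and STC1 (1.85), stanniocalcin 1, beside 1.67% of all genes. Without number 3, HMOX1 was at 1.03 and called, and STC1 at 1.44 and not called (adjusted p = 0.266). In NF1 mutant cells without replicate 1 they numbered 3 of 59: HIF1A, DDIT4 (1.92), an mTOR complex 1 inhibitor, and CXCR4 (-0.94), a chemokine receptor, beside 1.59% of all genes. STC1 was at 0.798 to 3.76 CPM under DMSO in parental cells, and 19.1 CPM in the number 3 VT107 library beside 3.89 and 2.24 CPM.

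The VT107 responses of the 2 genotypes come from separate libraries. Of 36 members tested in both, 26 had the same sign, beside 65% of 11432 genes. Without replicate 1 it was 29 of 37, beside 66.3% of 12167 genes, and with number 3 left out as well 26 of 37, beside 64.5% of 12280 genes. The difference of the responses was called for no member and for 0% of 11432 genes, with 0 of 36 members and 78 genes at an unadjusted p under 0.05, and DESeq2 called no member either. For ADM the difference was -0.24 ± 0.45 and for NDRG1 -0.04 ± 0.46 on the log2 scale. HIF1A shows that a difference as large as 1.17 could go uncalled in this design.

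**Figure D5:**
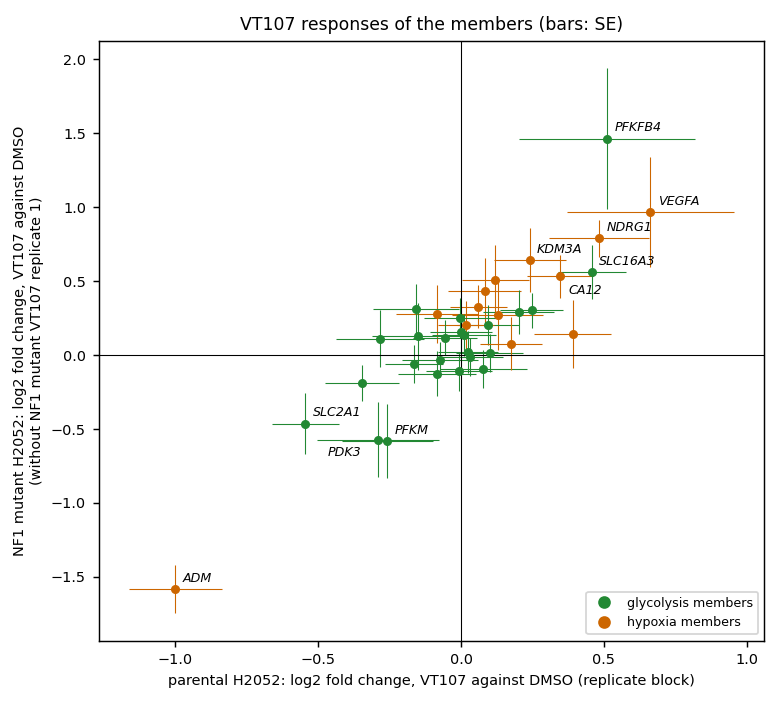
Log2 fold change of VT107 against DMSO in parental H2052 (x axis, fit with the replicate block) and in NF1 mutant H2052 (y axis, without VT107 replicate 1), 1 point per member with SE bars, green for glycolysis and orange for hypoxia members. ADM lies at -1.0 and -1.58, apart from the other members, and NDRG1 at 0.48 and 0.79. With parental number 3 left out, the parental values are -0.71 for ADM and 0.20 for NDRG1.

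The H226 libraries had 1387223 to 1726786 counts, and their values are described without being used as support for the H2052 results. Strand was examined in 14 pairs where an abundantly counted H2052 gene sits within a sparsely counted one transcribed the other way, and in 14 of 14 the H226 counts were higher for the enclosing gene, and TPI1 had 0 or 1 count per library, so that the values of a row may not be those of its own transcript. A row was listed for 36 members, with ALDOC, GAPDH, VEGFA and ADM not among them, and 27 were tested. At an adjusted p under 0.05, 4 members were higher with VT107, HK2 (log2 fold change 1.32), ENO2 (1.24), ARNT (0.70) and BNIP3L (0.51), and 3 were lower, PFKP (-1.13), LDHA (-0.89) and LDHB (-0.89), beside 19.6% of 12765 genes. LDHA was called in 9 of 13 alternatives and not by DESeq2 (adjusted p = 0.0522). HK2 had 16, 15 and 12 counts under DMSO and 51, 37 and 38 under VT107. LDHB had 198, 191 and 152 counts and 128, 105 and 107 counts. These groups were separate, but the rows cannot be compared with the H2052 levels while their strand is unsettled.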

How the data were processed

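RNA-seq was performed on polyA RNA of parental and NF1 mutant H2052 cells and of H226 cells, each treated with DMSO or VT107 (18 libraries). The deposited values are raw counts per gene on hg19, made by the authors from single-end reads demultiplexed with bcl2fastq 2.20.0.422 per the labels; no source used here names the aligner, counter or annotation. The H226 table is limited to genes whose corrected p, in a comparison made by the authors with DESeq, was under 1, and those fold changes and p-values were not used, and 16 columns of siRNA-treated samples matched no label and were not used.

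Identifiers listed more than once were summed. Testing was limited to genes reaching 0.5 CPM in all libraries compared. It was done with edgeR 4.0.16 (R 4.3.3, TMM, quasi-likelihood test, Benjamini-Hochberg adjustment over all genes tested, threshold 0.05). The code was tried on simulated counts with the same variability for all genes and no outlying library. That trial does not show how the test behaves in these libraries. Standard errors are the log2 fold change divided by the root of the F statistic. limma 3.58.1 and DESeq2 1.42.0 were alternatives, as were other filters and scaling factors, leaving out each library and the replicate block. The study states biological replicates. Same-numbered parental libraries correlated in their deviations from group means (r = 0.654, 0.532 and 0.822), though numbers 1 and 2 are not told apart by these correlations. The NF1 mutant pairs (-0.170, -0.217 and 0.161) and H226 pairs did not all do so. The block was therefore used to name calls only for VT107 in parental cells. In other comparisons it is an alternative only. Between NF1 mutant and parental DMSO libraries of the same number, r was 0.109, -0.118 and -0.00378, so block values there rest on replicate numbers that need not be matched.

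The 40 genes, the further pathway genes and the marker lists were chosen with earlier results of these data known. Values were named for members called in a comparison, up to the 10 with the largest fold change, and for up to 6 uncalled members of the same step or paralog family. The values of SLC2A1, SLC2A3, HK1, HK2, SLC16A3, HIF1A and VHL beyond that rule were singled out after they were seen. Motifs were searched in the RefSeq promoter table.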

Additional observations from a re-analysis of the deposited data

How the results depend on the processing

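With 3 libraries per group, a parental set apart in depth from the NF1 mutant set, and 1 NF1 mutant VT107 library unlike the others of its group, calls depended on the libraries used. In NF1 mutant against parental cells under DMSO, 14 members were called, beside 12.5% of all genes higher and 14.9% lower. With all 4 groups in 1 fit the count was 2, beside 7.36%, and without the parental number 3 library 22, beside 50.9%. It was 8 to 22 as single libraries were left out, beside 14.2% to 50.9%. Limma quality weights gave 23. The share of all genes called moved as well, so a count here without its share is not a result about the members. The 14 log2 fold changes kept their sign in all 15 alternatives, of which leaving out the parental number 3 library counts as 2. The alternatives reuse the counts from which the 14 were called, so kept signs are not separate support. Thinning the parental libraries to the NF1 mutant depth, chosen after seeing the data, did not move the count of 14 by over 1.5 times. Under VT107 no member was called in the main fit. DESeq2 called PFKL, and also genes outside the members. Quality weights called 17 members, beside 31.1% of all genes. The fit of all 4 groups called 5. Leaving out parental number 3 together with NF1 mutant VT107 replicate 1, also chosen after seeing the data, gave 15. Single libraries left out gave 0. VT107 called no member in parental cells but 1 with the replicate block, beside 1.67% of all genes, and 0 when single libraries were left out. In NF1 mutant cells it called none, but ADM and NDRG1 with quality weights. It called 0 to 2 as single libraries were left out, with 1.59% of all genes called without VT107 replicate 1. The replicate block moved no other comparison's count of called members by over 1.5 times. The difference of the responses was called for 0 members in every alternative. The cause of these differences was not tested.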
